A study of Mus musculus with 15 samples.

Results

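The genes described here code for forkhead (Fox), Sox, Gata, Klf and Runx transcription factors, read from mouse ovary RNA on oligonucleotide arrays. They were chosen by name: a probe was taken if its RefSeq accession maps to a current mouse symbol made of one of these 5 family names and a number, with Sox9 left out. Each gene was read from the probe with the highest mean ovary signal. The rule gave 68 genes on 79 probes, out of 12254 named genes and 41006 probes on the array. The 68 comprise 34 Fox, 13 Sox, 14 Klf and 4 Gata genes (Gata1, Gata2, Gata3 and Gata5) and 3 genes with a Runx name (Runx1, Runx3 and Runx1t1). Runx1t1 is a corepressor and not a Runx DNA-binding factor, and it was kept because the pattern takes it. No probe named in this way was found for Gata4, Gata6, Runx2, Foxj1, Sox6, Sox10, Sox12 or Sox15, which are not analysed here.

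The study asked how loss of 1 or both copies of Foxl2 changes the ovary while follicles form and begin to grow. Whole ovaries were taken from Foxl2-/- (null), Foxl2+/- (heterozygous) and wild-type female mice, as newborns with 3 arrays a genotype and at 7 days postnatum (7 dpn) with 2 arrays a genotype. All 15 samples share the strain label NIHS-BC, which the methods describe as a mixed background of NIH-Swiss/BC and an inbred laboratory strain, and the labels name no other allele and no treatment. Each array carried ovary RNA in Cy3 and the same mouse reference RNA, a pool from cell lines, in Cy5, and dyes were not swapped. The methods give RNA from individual mice as the rule, and pools of ovaries from several mice for the 7 dpn samples, so the spread at 7 dpn is that between pools. All values are log2 ratios of ovary over reference, so a difference of 1 is a 2-fold difference. Because whole ovaries were used, fewer cells of a type and less RNA per cell cannot be told apart.

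Transcription factors of these families bind short DNA motifs through a domain that names the family: the winged helix of forkhead proteins, the HMG box of Sox proteins, the zinc fingers of Gata and Klf proteins and the Runt domain of Runx proteins. Foxl2 itself is a forkhead factor of granulosa cells, the somatic cells that surround the oocyte, and is needed for their differentiation. Foxo1 is an insulin-regulated forkhead factor of granulosa cells, and Foxo3 restrains the activation of primordial follicles from within the oocyte. Sox7, Sox17 and Sox18 form the SoxF group, known from endothelial cells, Klf2 is induced in endothelium by flow, and Runx1 marks supporting cells of the fetal gonad as well as blood progenitors.

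The array reads each gene through 1 oligonucleotide of 60 bases, so every value below is that of a short stretch of transcript. The first 30 bases of the probes for the genes on which the results turn most are shown in the 5′ to 3′ direction, because they fix what was measured, with Foxl2 as the gene that was mutated.
Foxl2: aggctcactctgtccggcatctaccagtac
Foxo1: caggctacatttaaaagtccttcagattgt
Sox18: cttcctttcgcatatgtatgttagggtatg
Sox7: agtcccggatggatattaataatctcgtga
Gata3: ttaaggaatatagggggattaaagtatgga
Runx1: tgtgcatcgtgtcactgtaaatgtaatggt
Runx1t1: ttctttagagaactgaaaagagaggaaaga
Klf2: aggatcgaggctagatgccttgtgagaaat

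Where RefSeq gives a transcription start, the 250 bases before it were searched on both strands for a short core motif of each family: GTAAACA for forkhead factors, AGATAA for Gata factors, ACAAT for Sox factors, TGTGGT for Runx factors and CCACACCC for Klf factors. These letters are found in 3.17%, 9.99%, 27.7%, 14% and 3.2% of 32851 such mouse windows. A window was present for 48 of the 68 genes, 57 windows in all, of which 2 held the forkhead letters, 2 the Gata letters, 7 the Sox letters, 5 the Runx letters and 2 the Klf letters. Among the 10 genes that passed the test in a comparison between genotypes or ages, 6 had a window. The windows of Sox5, Foxo1, Gata3 and Klf2 are shown because these genes changed and lie in 4 of the families. The capitals in Sox5 mark the ACAAT match, and the windows of Foxo1, Gata3, Klf2, Klf7 and Runx1 (2 starts) held none of the 5 motifs. Sequences and positions are from RefSeq on GRCm38.p6, and the strand is that of the gene.
Sox5, chr6:143947107-143947356, minus strand: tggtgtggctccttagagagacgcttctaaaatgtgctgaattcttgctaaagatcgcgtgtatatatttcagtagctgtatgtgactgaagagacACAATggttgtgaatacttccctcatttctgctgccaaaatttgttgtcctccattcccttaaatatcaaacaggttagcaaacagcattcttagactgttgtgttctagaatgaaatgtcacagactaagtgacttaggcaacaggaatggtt
Foxo1, chr3:52268087-52268336, plus strand: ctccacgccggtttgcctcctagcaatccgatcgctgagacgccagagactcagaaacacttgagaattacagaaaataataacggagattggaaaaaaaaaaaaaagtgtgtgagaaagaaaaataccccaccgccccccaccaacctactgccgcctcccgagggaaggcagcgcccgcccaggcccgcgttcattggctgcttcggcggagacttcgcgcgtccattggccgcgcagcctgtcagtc
Gata3, chr2:9878601-9878850, minus strand: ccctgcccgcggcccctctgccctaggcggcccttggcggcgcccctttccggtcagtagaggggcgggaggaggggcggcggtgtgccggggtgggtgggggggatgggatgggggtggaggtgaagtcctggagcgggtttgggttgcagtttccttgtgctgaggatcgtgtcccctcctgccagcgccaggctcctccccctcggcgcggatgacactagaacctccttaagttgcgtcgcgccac
Klf2, chr8:72318812-72319061, plus strand: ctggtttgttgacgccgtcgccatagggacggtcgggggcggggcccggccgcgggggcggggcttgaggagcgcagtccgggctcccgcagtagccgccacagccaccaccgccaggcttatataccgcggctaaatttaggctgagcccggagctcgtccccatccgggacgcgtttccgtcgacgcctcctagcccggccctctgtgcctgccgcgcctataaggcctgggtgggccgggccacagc

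The ovary channel was well above background on 93.2% to 96.5% of spots per array. Of the 68 genes, 64 were well above background on all 15 arrays. Foxq1 reached it on all 14 arrays on which it was read, its spot on newborn heterozygous replicate 3 being left out as an outlier. Klf15 reached it on 13 arrays, while Sox2 and Sox3 reached it on 4 and 3 arrays, so no fold is given for these last genes. A named probe was present for 12 of 13 listed oocyte and germ cell genes and all 10 listed granulosa genes, which depends on the array and not on the samples. The mean log2 ratio of the 12 oocyte genes lay between 2.95 and 3.53 on every array. Newborn wild-type replicate 1 stood apart, with an SD of 0.35 against the other arrays of its group (0.20 to 0.29 for the other arrays) and 8.32% of probes more than 0.5 away from them (3.15% to 7.19% for the others). Calls that rest on it are therefore given with and without it.

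The Foxl2 probe did not separate Foxl2-/- from wild-type ovaries. The Foxl2 gene lies at chr9:98955607-98958126, and the log2 ratio of its probe was -0.27, -0.28 and -0.30 on the newborn Foxl2-/- arrays, -0.24, -0.21 and -0.25 on the heterozygous arrays and -0.27, -0.18 and -0.22 on the wild-type arrays. At 7 dpn it was -0.26 and -0.22 in Foxl2-/-, -0.23 and -0.27 in heterozygous and -0.32 and -0.25 in wild-type ovaries. All 15 values lie within 0.14 of each other. Foxl2-/- and wild-type arrays overlapped or touched at both ages, while the newborn Foxl2-/- arrays lay just below the newborn heterozygous arrays. The null differed from wild-type by 0.04 at 7 dpn (limma adjusted p = 0.781). Its mean ovary signal was 2194 intensity units and it was above background on all arrays. This probe therefore gives no check of the genotype labels.

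Among the 15 arrays, the genes fell into a flat part and a part that moved. The range from the lowest to the highest array was under 0.5 for 29 of the 68 genes (42.6%), beside 51.6% of all probes, and the median range was 0.62, beside 0.49 for all probes. The families differed in this: 21 of 34 Fox genes had a range under 0.5, but only 3 of 13 Sox and 2 of 14 Klf genes. Foxo3, the oocyte factor of follicle activation, moved over 0.19 in all, and Runx3 over 0.17. At the other end were Runx1t1 with a range of 1.70, Sox18 with 1.58, Klf2 with 1.54, Gata3 with 1.51 and Foxo1 with 1.31, each of them well above background on all arrays.

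**Figure D1:**
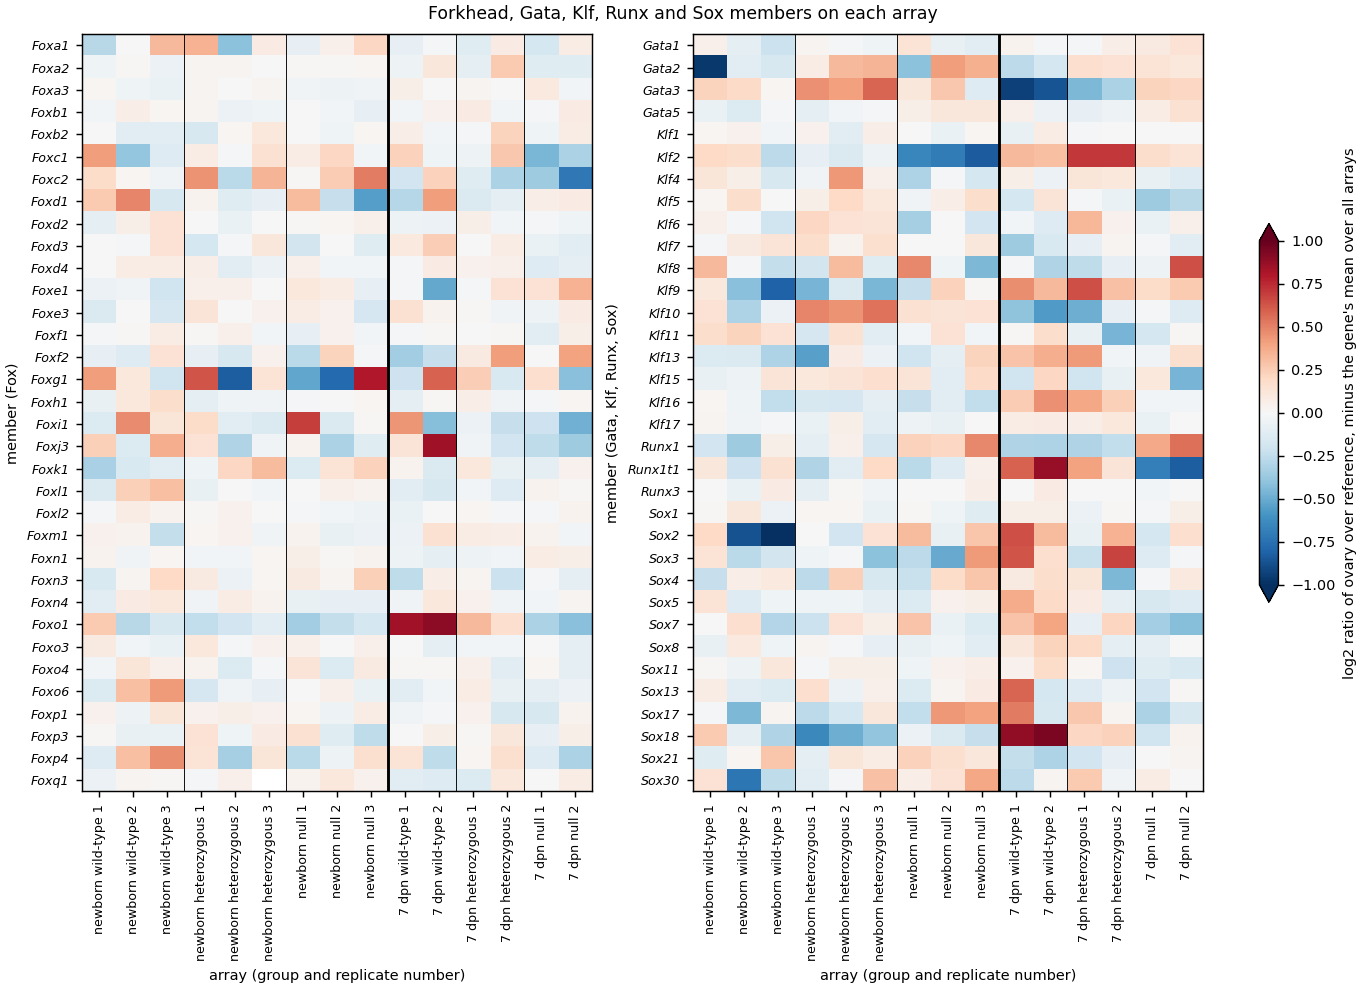
Heat map of the 68 genes (vertical axis) on the 15 arrays (horizontal axis, ordered by group); colour is the log2 ratio of ovary over reference minus the mean of that gene over the arrays. The 7 dpn Foxl2-/- arrays stand apart from the 7 dpn wild-type arrays for Foxo1, Gata3, Runx1t1, Runx1 and Sox18, while Foxl2, Foxo3 and Runx3 are near 0 throughout.

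In 7 dpn Foxl2-/- ovaries, 2 of the 68 genes were higher than in wild-type and 6 were lower. Gata3 and Runx1 rose, and Runx1t1, Foxo1, Sox18, Sox7, Sox5 and Klf16 fell. The 8 called genes are 11.8% of the 68, beside 5.99% of all probes called in this comparison (limma, Benjamini-Hochberg adjusted p under 0.05 over 40990 probes). The median difference of the 68 genes was -0.05, beside 0.00 for all probes, and its median size was 0.16, beside 0.10. The genes differ in how firmly they were called: Foxo1, Gata3, Runx1t1 and Sox18 passed under all 26 alternative settings tried, Runx1 under 25, Sox7 and Klf16 under 16 and Sox5 under 14.

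**Figure D2:**
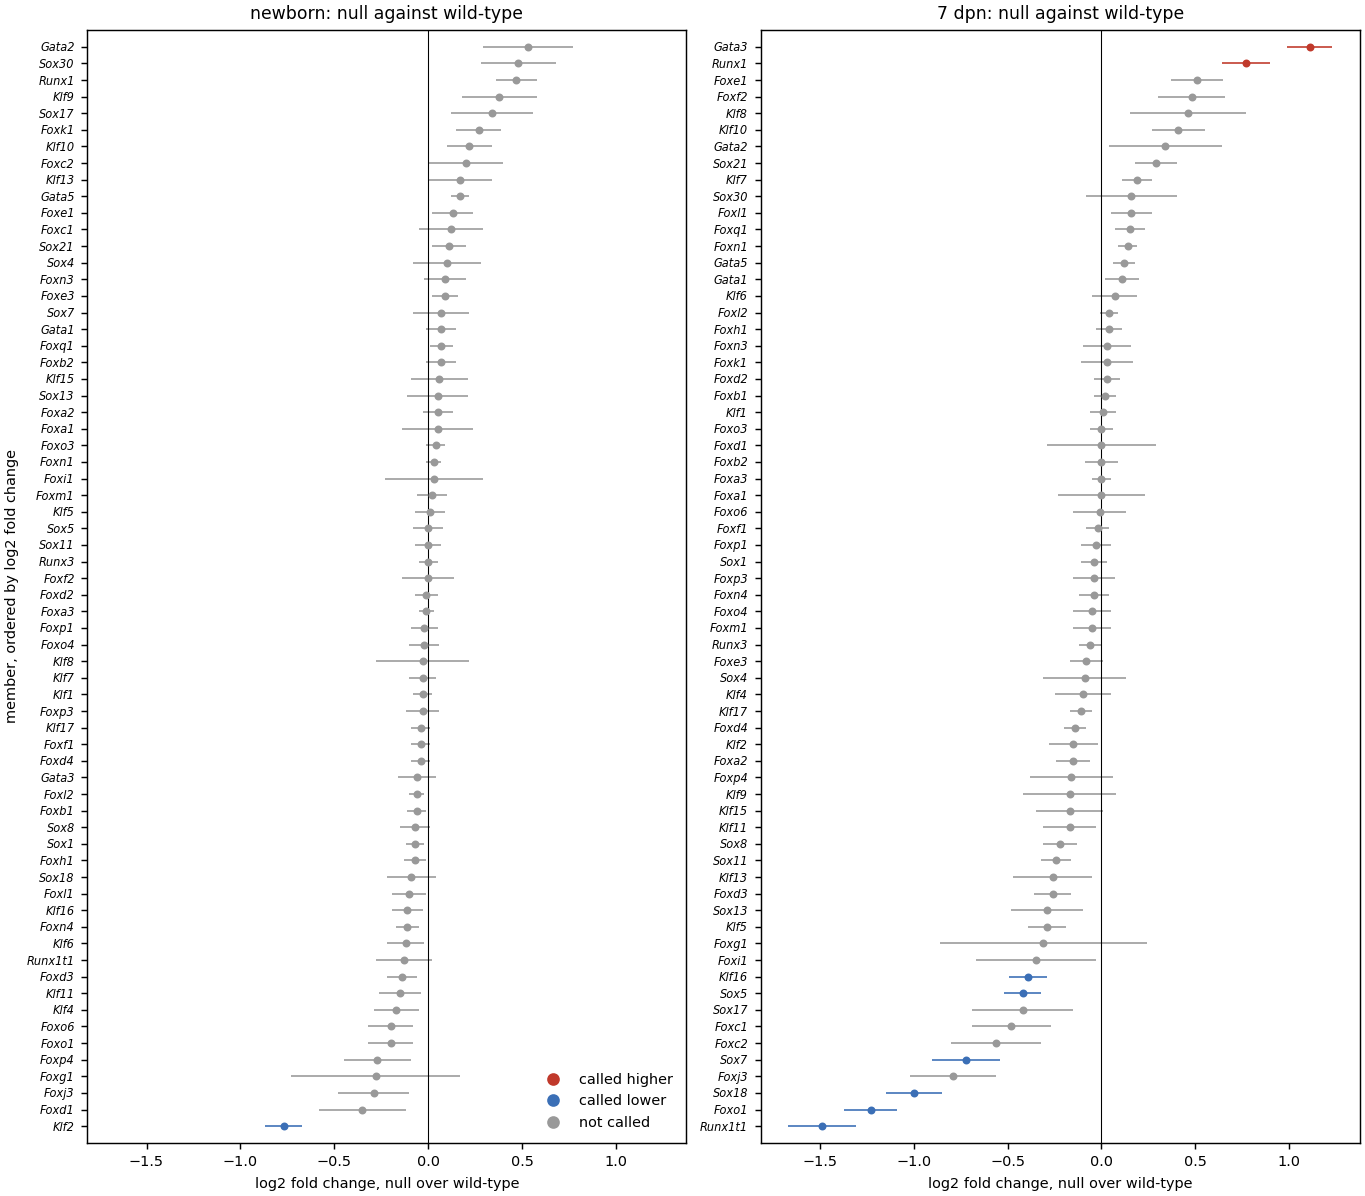
Difference between Foxl2-/- and wild-type ovaries (log2 scale, horizontal axis, with its standard error) for the genes at 7 dpn and in newborns; Sox2 and Sox3, not well above background on most arrays, are left out. At 7 dpn the called genes reach from -1.49 (Runx1t1) to 1.11 (Gata3), and in newborns only Klf2 (-0.77) was called.

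Among the forkhead genes, Foxo1 was the 1 of 34 that was called. Foxo1 (chr3:52268337-52350109) had log2 ratios of 1.08 and 0.98 on the 7 dpn Foxl2-/- arrays, 1.72 and 1.57 on the heterozygous arrays and 2.24 and 2.29 on the wild-type arrays. The 3 genotypes did not overlap, and heterozygous ovaries lay between the others. Foxo1 fell by 1.23 (SE 0.14, limma adjusted p = 0.000674), a 2.35-fold lower ratio in Foxl2-/-. In contrast, Foxo3 differed by 0.00 (adjusted p = 0.988). The median over the Fox family was -0.01. Of the other Fox genes with the largest differences, Foxj3 was at -0.79 (adjusted p = 0.0772), Foxc2 at -0.56 (0.255) and Foxc1 at -0.48 (0.27), and on the other side were Foxe1 at 0.51 (0.0599) and Foxf2 at 0.48 (0.159), none of which passed. Foxc1 and Foxc2 are mesenchymal factors known from blood vessels and the kidney. The 7 dpn wild-type arrays themselves were far apart for Foxj3, at 0.38 and 1.10, against 0.00 and -0.10 in Foxl2-/-. Foxe1 wild-type values of 0.39 and -0.11 were likewise spread, below the Foxl2-/- values of 0.55 and 0.75.

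Of the 13 Sox genes, Sox18, Sox7 and Sox5 were called lower in 7 dpn Foxl2-/- ovaries. The median difference over the family was -0.29, and 11 of 13 differences were negative, the dim Sox2 and Sox3 among them. Sox18 (chr2:181669837-181671640) had log2 ratios of 1.43 and 1.67 in Foxl2-/-, 1.84 and 1.86 in heterozygous and 2.52 and 2.57 in wild-type ovaries. It fell by 1.00 (SE 0.15, limma adjusted p = 0.00358), with no overlap among the genotypes. Sox7 (chr14:63943706-63950732), another SoxF gene, had values of 2.14 and 2.06, then 2.40 and 2.70, then 2.77 and 2.88 in the same order of genotypes. Here too Foxl2-/- lay lowest and wild-type highest, and the fall was 0.72 (SE 0.18, adjusted p = 0.039), but -0.46 (0.164) with the authors' series values. The remaining SoxF gene, Sox17, read 1.11 and 1.27 in Foxl2-/- and 1.95 and 1.27 in wild-type, so that the groups touched, and its difference of -0.42 did not pass (adjusted p = 0.519).

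Sox5 (chr6:143828425-144782287), a SoxD factor known from cartilage and neural cells, read 0.13 and 0.16 in Foxl2-/-, 0.37 and 0.19 in heterozygous and 0.66 and 0.48 in wild-type ovaries at 7 dpn. Foxl2-/- lay below both other genotypes, and Sox5 fell by 0.42 (SE 0.10, limma adjusted p = 0.0353). The call of Sox5 was lost without any one of the 4 arrays compared, and also without newborn heterozygous replicate 3 or newborn null replicate 2 (adjusted p from 0.0513 to 0.21). Sox7 was lost without any one of the same 6 arrays (0.053 to 0.203). Of the genes that did not pass, Sox13, a SoxD partner of Sox5, was at -0.29 (adjusted p = 0.545), Sox11 and Sox8 at -0.24 (0.13) and -0.22 (0.255), Sox4 at -0.09 (0.922), Sox30 at 0.16 (0.855) and Sox21 at 0.29 (0.188). Sox3 was above background on both 7 dpn wild-type arrays and on neither Foxl2-/- array, and Sox2 on both wild-type arrays and 1 Foxl2-/- array, and neither was called (adjusted p = 0.572 and 0.565).

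All 4 Gata genes had a positive difference in 7 dpn Foxl2-/- ovaries, with a median of 0.23, and Gata3 was called. Gata3 (chr2:9857078-9887953), a factor of T cells and of several epithelia including the Wolffian duct, had log2 ratios of -0.36 and -0.37 on the Foxl2-/- arrays, -1.03 and -0.90 on the heterozygous arrays and -1.51 and -1.44 on the wild-type arrays. The genotypes did not overlap and heterozygous ovaries were again in the middle. Gata3 rose by 1.11 (SE 0.12, limma adjusted p = 0.000368), a 2.15-fold difference. Gata2, a factor of blood progenitors and endothelium, read 0.94 and 0.91 in Foxl2-/- and 0.54 and 0.63 in wild-type, and did not pass.

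Of the 3 genes with a Runx name, Runx1 rose and the corepressor Runx1t1 fell at 7 dpn. Runx1 (chr16:92601466-92826074) read 1.04 and 1.21 in Foxl2-/-, 0.36 and 0.41 in heterozygous and 0.36 and 0.35 in wild-type ovaries. Heterozygous and wild-type values were alike and both Foxl2-/- arrays lay above them, and Runx1 rose by 0.77 (SE 0.13, limma adjusted p = 0.00588). Runx1 was lost as a call without 7 dpn null replicate 2 (0.67, adjusted p = 0.0756), and was at 1.29 from the ovary channel alone. Runx1t1 (chr4:13742628-13895056), whose protein recruits histone deacetylases, read 0.72 and 0.58 in Foxl2-/-, 1.81 and 1.54 in heterozygous and 2.00 and 2.28 in wild-type ovaries. It fell by 1.49 (SE 0.18, adjusted p = 0.000978), a 2.81-fold difference, with no overlap among the genotypes. The size depends on the processing: Runx1t1 was at -0.87 with normexp and -0.79 with the authors' series values, and was called in both. Runx3 differed by -0.06 and did not pass.

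Of the 14 Klf genes, Klf16, a zinc-finger repressor, was called. Klf16 (chr10:80567121-80577296) read 0.26 and 0.26 in Foxl2-/-, 0.68 and 0.53 in heterozygous and 0.54 and 0.75 in wild-type ovaries at 7 dpn, so that only Foxl2-/- stood apart. Klf16 fell by 0.39 (SE 0.10, limma adjusted p = 0.0414), and the call was lost without either Foxl2-/- array, 7 dpn wild-type replicate 2 or newborn heterozygous replicate 3 (adjusted p from 0.0532 to 0.224). The median over the family was -0.13, and 9 of the 14 differences were negative. The largest positive ones, Klf8 at 0.46 (adjusted p = 0.552) and Klf10 at 0.41 (0.142), did not pass. The 7 dpn Foxl2-/- arrays were far apart for Klf8, at 1.45 and 2.15.

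**Figure D3:**
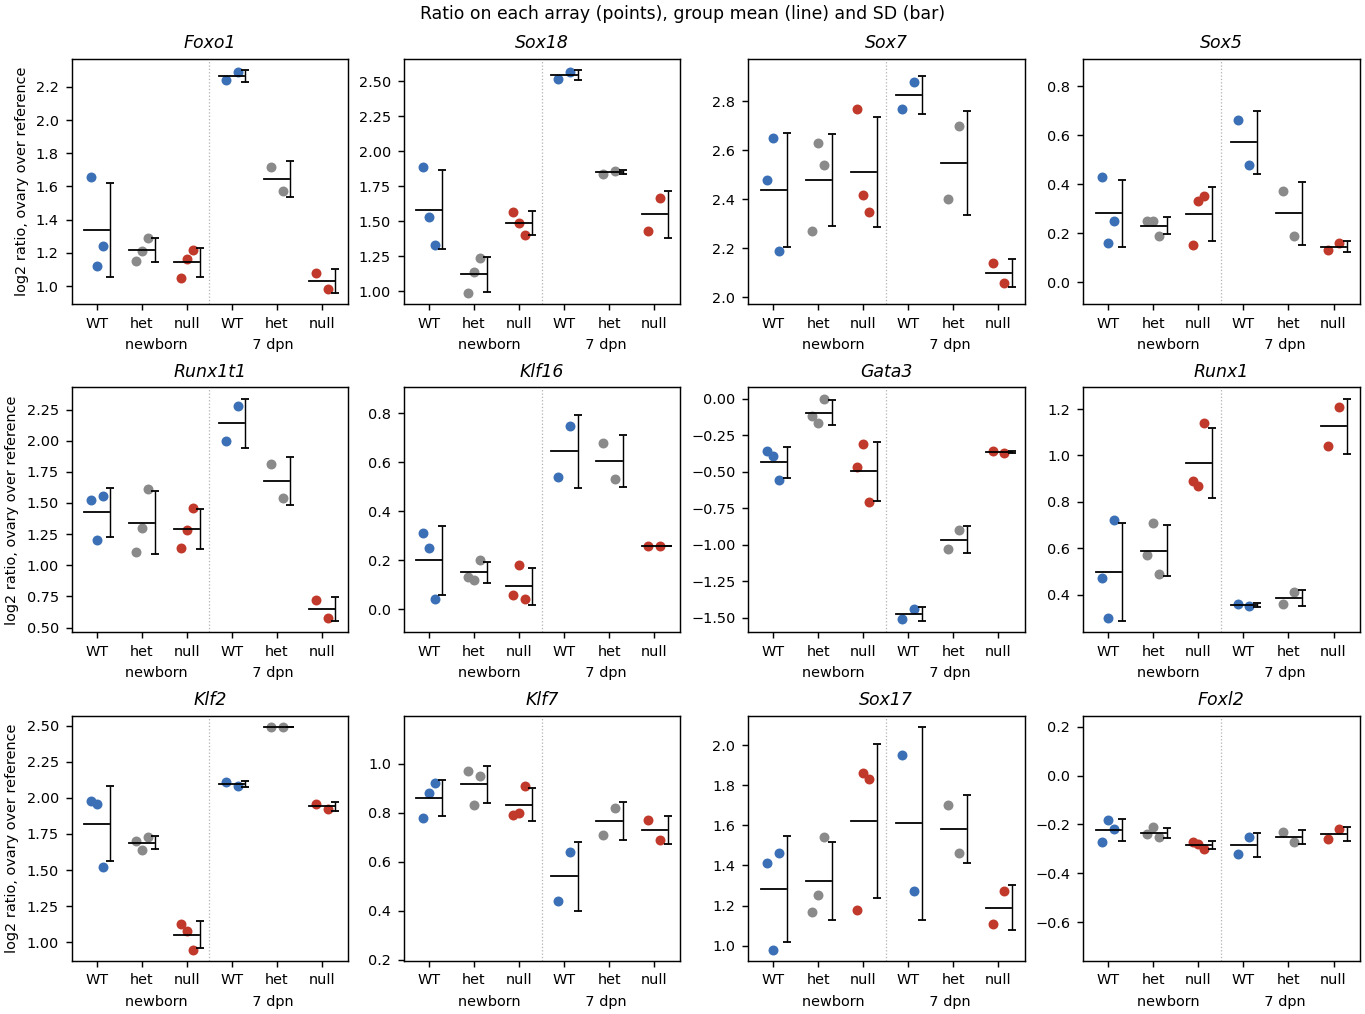
Log2 ratio of ovary over reference (vertical axis) for 12 genes in the 6 groups; points are arrays, the line is the group mean and the bar the SD. Foxo1, Sox18 and Runx1t1 are lowest and Gata3 and Runx1 highest in 7 dpn Foxl2-/- relative to wild-type ovaries of that age, Klf2 is lowest in newborn Foxl2-/- ovaries, and Foxl2 is flat.

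Heterozygous ovaries at 7 dpn gave no call among the 68 genes with all arrays in the fit. All probes gave 0.0707% (29 probes, limma adjusted p under 0.05), and 13 of the 68 genes were at an unadjusted p under 0.05 (19.1%, beside 9.31% of all probes). The largest negative differences from wild-type were those of Sox18 at -0.69 (SE 0.15, adjusted p = 0.14), Foxo1 at -0.62 (SE 0.14, adjusted p = 0.152) and Foxj3 at -0.60 (adjusted p = 0.435). The largest positive ones were those of Foxf2 at 0.54 (adjusted p = 0.313) and Gata3 at 0.51 (SE 0.12, adjusted p = 0.152). Foxo1, Sox18 and Gata3 are thus among the 5 largest differences on their side here, without passing. Without newborn wild-type replicate 1, which is not one of the arrays compared but enters the normalization and the shared estimate of the spread, Foxo1 (-0.62, adjusted p = 0.0162) and Sox18 (-0.70, adjusted p = 0.0247) were called lower, beside 0.449% of all probes.

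Set directly against each other at 7 dpn, Foxl2-/- and heterozygous ovaries differed in 3 of the 68 genes (4.41%), beside 2.06% of all probes. Runx1 was 0.74 higher in Foxl2-/- (SE 0.13, limma adjusted p = 0.0143), Gata3 was 0.60 higher (SE 0.12, 0.0244), and Runx1t1 fell by 1.02 (SE 0.18, 0.0152), with -0.60 under normexp and -0.63 in the authors' series values. Klf2, the flow-induced endothelial factor, read 1.96 and 1.92 in Foxl2-/- and 2.49 and 2.49 in heterozygous ovaries, with 2.11 and 2.08 in wild-type between them, and its difference of -0.55 did not pass (adjusted p = 0.0522). Foxo1 at -0.61 was also just outside the threshold (adjusted p = 0.0556). The 3 calls were each lost without any one of the 4 arrays compared. Without newborn wild-type replicate 1 the calls numbered 5, Foxo1 (0.00269) and Klf2 (0.034) being added, beside 3.08% of all probes.

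In newborn ovaries Klf2 alone was called between Foxl2-/- and wild-type, 1.47% of the 68 beside 1.64% of all probes, and the median size of the differences was 0.07, beside 0.08 for all probes. Klf2 (chr8:72319062-72321654) had log2 ratios of 1.13, 1.08 and 0.95 on the Foxl2-/- arrays, 1.70, 1.64 and 1.73 on the heterozygous arrays and 1.98, 1.96 and 1.52 on the wild-type arrays. All 3 Foxl2-/- arrays lay below the other 6. Klf2 fell by 0.77 against wild-type (SE 0.10, limma adjusted p = 0.00389), and by 0.68 without newborn wild-type replicate 1 (0.00488). The call of Klf2 was lost with median centring (-0.69, adjusted p = 0.0577) and with the ovary channel alone (-0.71, 0.206). It also fell by 0.63 against heterozygous ovaries (SE 0.10, adjusted p = 0.0284), the 1 call of that comparison, beside 0.385% of all probes, and this call was lost without 10 of the arrays in turn (adjusted p from 0.0504 to 0.131).

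Of the genes called at 7 dpn, Runx1 was nearest to a call in newborn Foxl2-/- ovaries. It read 0.89, 0.87 and 1.14 in Foxl2-/-, 0.57, 0.71 and 0.49 in heterozygous and 0.47, 0.30 and 0.72 in wild-type newborns. Every Foxl2-/- array lay above the other 6, and the difference of 0.47 (SE 0.11) did not pass (limma adjusted p = 0.0572). Runx1 was called under 5 alternatives, with differences of 0.37 under normexp (0.022), 0.53 with median centring (0.0243), 0.48 with a span of 0.3 (0.0477), 0.45 in the authors' series values (0.0343) and 0.59 without newborn wild-type replicate 3 (0.0244). Foxo1 read 1.05, 1.16 and 1.22 in Foxl2-/- and 1.66, 1.12 and 1.24 in wild-type newborns. Runx1t1 read 1.14, 1.28 and 1.46 against 1.52, 1.20 and 1.56, and Gata3 -0.47, -0.31 and -0.71 against -0.36, -0.39 and -0.56. For these genes the newborn groups overlapped. Sox18 and Sox7 differed by -0.09 (adjusted p = 0.798) and 0.07 (0.874). The largest other differences were those of Gata2 at 0.53 (0.355), Sox30 at 0.48 (0.302), Klf9 at 0.38 (0.439) and Foxd1 at -0.35 (0.547), none of which passed.

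Without newborn wild-type replicate 1, 5 of the 68 genes were called between newborn Foxl2-/- and wild-type ovaries, beside 7.59% of all probes. They were Klf2, Foxl1 (-0.27), Foxo6 (-0.36), Sox30 (0.68, limma adjusted p = 0.0498) and Sox2, whose probe was dim. For Foxl1, the wild-type arrays read -0.89, -0.50 and -0.44 and the Foxl2-/- arrays -0.74, -0.69 and -0.71, so that the array left out lay on the other side of Foxl2-/- from the 2 that stayed. Foxo6 showed the same arrangement, with -0.75, -0.31 and -0.19 in wild-type and -0.62, -0.56 and -0.68 in Foxl2-/-.

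Newborn heterozygous ovaries gave no call against wild-type, beside 0.0122% of all probes, with 7 of the 68 genes at an unadjusted p under 0.05 (10.3%, beside 12.8% of all probes). The largest differences were those of Gata2 at 0.66 (limma adjusted p = 0.298), Klf10 at 0.57 (0.144) and Sox18 at -0.46 (0.198). Klf10, a TGF-beta-induced factor, read 0.15, 0.11 and 0.20 in heterozygous, -0.20, -0.65 and -0.40 in wild-type and -0.19, -0.21 and -0.20 in Foxl2-/- newborns. The heterozygous arrays lay above all other newborn arrays on this probe, but the other Klf10 probe, of nearly equal signal, gave 0.02 against wild-type (adjusted p = 0.864). Without newborn wild-type replicate 1, 5 genes were called, beside 6.02% of all probes: Klf10 (0.68), Foxh1 (-0.21), Foxl1 (-0.32), Foxo6 (-0.45) and the dim Sox2.

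In wild-type ovaries, 4 of the 68 genes rose and 2 fell from birth to 7 dpn. Sox18, Foxo1, Runx1t1 and Klf16 rose, and Gata3 and Klf7 fell. These 6 genes are 8.82% of the 68, beside 9.53% of all probes called in this comparison. All newborn arrays went through the feature extraction software on one day and all 7 dpn arrays on another, so this day and age cannot be told apart, and age also goes with pooling. Sox18 rose from 1.89, 1.53 and 1.33 in newborns to 2.52 and 2.57 (0.96, SE 0.14, limma adjusted p = 0.00318), and Foxo1 from 1.66, 1.12 and 1.24 to 2.24 and 2.29 (0.93, SE 0.13, 0.00266). Gata3 fell by 1.04 (SE 0.11, 0.000761), from -0.36, -0.39 and -0.56 to -1.51 and -1.44. The ages did not overlap for any of these genes.

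Runx1t1 rose by 0.72 (SE 0.17, limma adjusted p = 0.0213) and Klf16 by 0.45 (SE 0.09, 0.0114) in wild-type ovaries with age. Klf7 (chr1:64029448-64122345), a factor of neurons and fat cells, fell by 0.32 (SE 0.08, 0.024), from 0.78, 0.88 and 0.92 to 0.44 and 0.64. Runx1t1 was lost without 7 dpn wild-type replicate 2 or newborn wild-type replicate 2 (adjusted p from 0.0738 to 0.149), Klf16 without 7 dpn wild-type replicate 2 (0.0966), and Klf7 without 7 dpn wild-type replicate 1 or newborn wild-type replicate 2 or 3 (0.0606 to 0.184). In the authors' series values Runx1t1 was at 0.34 (0.0557) and not called, and Klf16 at 0.29 (0.0335). Klf9, a hormone-responsive factor, was at 0.77 (adjusted p = 0.0594) and did not pass. Of the 13 Sox genes, 12 had a positive difference, with a median of 0.26. The dim genes Sox2 and Sox3 were above background on both 7 dpn wild-type arrays and on no newborn wild-type array, and were not called. Leaving out newborn wild-type replicate 1 gave 13 calls, beside 19.5% of all probes, which included all 6 genes above, with Sox18 at 1.13, Foxo1 at 1.09, Runx1t1 at 0.78, Klf16 at 0.49, Gata3 at -1.02 and Klf7 at -0.38 (adjusted p from 4.68e-05 to 0.0149), and Sox5 (0.37, 0.0138), Sox21 (-0.42, 0.0103) and Klf9 (0.98, 0.00428). With all arrays, Sox21 was at -0.34 (adjusted p = 0.0636) and its other probe, of lower signal, at -0.06 (0.847).

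In Foxl2-/- ovaries these 6 genes did not pass with age, and Klf2 was the 1 gene that did, 1.47% of the 68 beside 3.31% of all probes. Klf2 rose from 1.13, 1.08 and 0.95 to 1.96 and 1.92 (0.89, SE 0.11, limma adjusted p = 0.00383), so that the 7 dpn Foxl2-/- arrays lay near the newborn wild-type arrays. This call was lost without 7 dpn null replicate 2 (0.91, 0.0549), where the probes called in all fell from 1358 to 84. Sox18 went from 1.57, 1.49 and 1.40 to 1.43 and 1.67, a difference of 0.06 (0.905). Gata3 stayed between -0.71 and -0.31 at both ages. Runx1t1 was at -0.64 (0.0657) and Foxc2 at -0.80 (0.0866), neither of which passed. Klf5, an epithelial factor, was at -0.38 (0.0547) and was called under 7 alternatives (-0.42 to -0.23, adjusted p from 0.0236 to 0.0491), among them normexp, a span of 0.3 and the filter on dim probes. With normexp Runx1t1 (-0.32, 0.0128) and Sox7 (-0.43, 0.0156) were also called. Foxc2 was called without newborn heterozygous replicate 2 (-0.80, 0.0401). The median over the Sox genes was -0.13. The comparisons of age in Foxl2-/- and in wild-type ovaries share no arrays, and the test of the difference between them is the interaction given next.

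**Figure D4:**
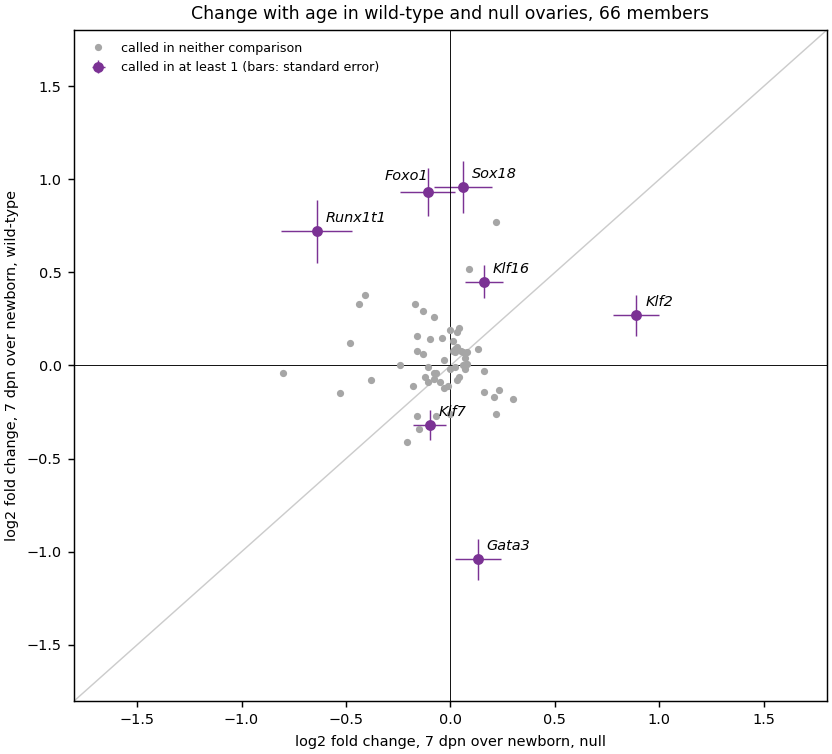
Difference between 7 dpn and newborn ovaries (log2 scale) in Foxl2-/- (horizontal axis) and in wild-type ovaries (vertical axis), 1 point a gene, Sox2 and Sox3 left out. Sox18 (0.96 in wild-type, 0.06 in Foxl2-/-), Foxo1, Runx1t1 and Gata3 lie away from 0 along the wild-type axis, and Klf2 (0.89) along the Foxl2-/- axis.

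Whether the effect of losing Foxl2 differed between the ages was tested as an interaction. Gata3 and Runx1t1 passed, 2.94% of the 68 genes beside 0.295% of all probes. The effect on Gata3 was 1.16 higher at 7 dpn than in newborns (SE 0.15, limma adjusted p = 0.0243), and that on Runx1t1 was lower, by -1.36 (SE 0.23, adjusted p = 0.0472). Foxo1 was next at -1.04 (adjusted p = 0.0504), and Sox18 at -0.90 (0.102). Gata3 was lost without either 7 dpn Foxl2-/- array or 7 dpn wild-type replicate 2 (adjusted p from 0.0507 to 0.0976), and Runx1t1 without 13 of the arrays in turn (0.0529 to 0.21). Runx1t1 was at -0.80 (0.00424) with normexp and at -0.75 (0.0886) in the authors' series values.

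**Figure D5:**
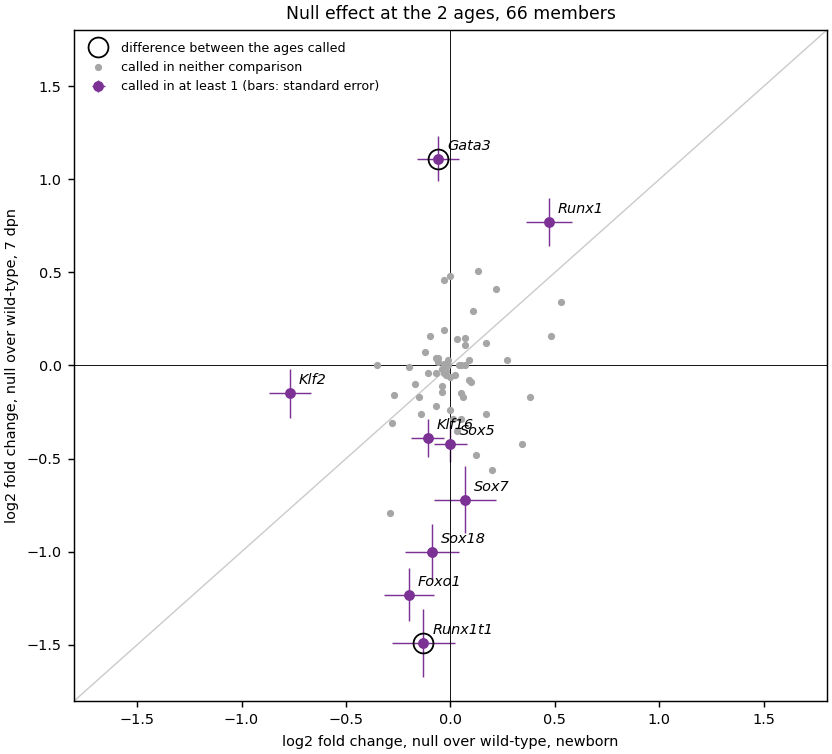
Difference between Foxl2-/- and wild-type ovaries (log2 scale) in newborns (horizontal axis) and at 7 dpn (vertical axis), 1 point a gene, Sox2 and Sox3 left out. Gata3 (1.11), Runx1t1 (-1.49), Foxo1 (-1.23) and Sox18 (-1.0) are far from 0 at 7 dpn and near it in newborns, Klf2 (-0.77) is far from 0 in newborns, and Runx1 is above 0 at both ages (0.47 and 0.77).

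Without newborn wild-type replicate 1, the interaction with loss of both copies was called for 8 genes, beside 3.97% of all probes. Besides Gata3 (1.16, limma adjusted p = 0.00487) and Runx1t1 (-1.41, 0.0168), these included Foxo1 (-1.20, 0.00113), Sox18 (-1.06, 0.00458), Sox5 (-0.50), Foxc1 (-0.83) and Foxl1 (0.42), and the dim Sox2. The heterozygous effect gave no interaction among the 68 genes with all arrays, beside 0.00244% of all probes, and 4 were at an unadjusted p under 0.05 (5.88%, beside 7.46% of all probes). Without that array it gave 4 calls, beside 2.22%: Foxo1 (-0.66, 0.0254), Foxl1 (0.37), Foxo6 (0.51) and the dim Sox2.

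Partners of these families were counted from a fixed list. Of 13 measured partners, 2 were higher and 3 lower in 7 dpn Foxl2-/- ovaries, with a median difference of -0.04, beside 5.99% of all probes called. Zfpm1, a cofactor of Gata factors, was 0.38 higher (limma adjusted p = 0.0107), and Esr1, the estrogen receptor of theca and stroma, was 0.69 higher (0.00599). Esr2, the estrogen receptor of granulosa cells, fell by 0.85 (0.00194). Cbfb, the common partner of Runx proteins, fell by 0.40 (0.0419), and Tle1, a corepressor, fell by 0.36 (0.0155). In newborn Foxl2-/- ovaries, Zfpm1 was 0.28 higher (0.0417) and Smad3, a transducer of TGF-beta signals whose probe was above background on 14 of the 15 arrays, fell by 0.91 (0.016), while the other 11 partners did not pass, beside 1.64% of all probes called. Without newborn wild-type replicate 1, Zfpm1 was at 0.26 (0.0467) and Smad3 at -0.97 (0.00977), and Tle1 was called as well (-0.33, 0.00386), beside 7.59% of all probes. In 7 dpn heterozygous ovaries, Esr1 was the 1 of 13 partners called against wild-type, 0.84 higher (0.0428), beside 0.0707% of all probes, and it stayed called without that array (0.0112).

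Of 15 measured textbook targets of these factors in gonad, cell cycle and blood, 1 was higher and 5 were lower in 7 dpn Foxl2-/- ovaries, with a median of -0.25, beside 5.99% of all probes called. Cdkn1a, a cell cycle inhibitor that Foxo factors induce, was 1.36 higher (limma adjusted p = 0.00168). Cyp19a1, the aromatase that makes estrogen, fell by 2.46 (0.0016), the inhibin subunit Inha fell by 2.05 (0.00638), the activin antagonist Fst fell by 1.62 (0.00123) and Amh, a hormone of growing follicles, fell by 0.82 (0.00535). Cyp11a1 was also called lower, but its probe was above background on 9 of the 15 arrays, so no size is given. Fst was the 1 target called in newborn Foxl2-/- ovaries, where it fell by 1.36 (0.00245), beside 1.64% of all probes called, and by 1.31 (0.00472) without newborn wild-type replicate 1.

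Several cell type markers moved with these genes, and the counts at 7 dpn between Foxl2-/- and wild-type stand beside 5.99% of all probes called. Of 10 granulosa genes, 4 of them also in the list of targets, 7 were lower in 7 dpn Foxl2-/- ovaries, and their mean log2 ratio was 0.70 to 0.78 in Foxl2-/-, 1.45 to 1.53 in heterozygous and 2.11 to 2.38 in wild-type ovaries, the same order as for Foxo1, Sox18 and Runx1t1. Against wild-type, 1 of the 10 was called in 7 dpn heterozygous ovaries, Inhba, an activin subunit, which fell by 2.13 (limma adjusted p = 0.0272), beside 0.0707% of all probes. Cyp19a1 was called there too when newborn wild-type replicate 1 was left out (-1.96, 0.000322, beside 0.449% of all probes). Of 6 endothelial genes measured, none was called with all arrays, and their mean was 0.83 to 0.89, 0.99 to 1.16 and 1.15 to 1.23 in that order, beside the falls of Sox18 and Sox7. Without newborn wild-type replicate 1, 1 of the 6 was called lower in 7 dpn Foxl2-/- than in wild-type ovaries, beside 3109 of 40990 probes. Tie1, an endothelial receptor, was at -0.95 (limma adjusted p = 0.0778) and Emcn at -0.79 (0.085), but Pecam1 at -0.19 and Cdh5 at 0.04. Beside the rise of Gata3, Krt18 of the surface epithelium list was 0.80 higher (0.00537). The mean of the 4 measured genes of that list was -1.50 to -1.39 in Foxl2-/-, -1.91 to -1.84 in heterozygous and -2.01 to -1.73 in wild-type ovaries. Its heterozygous values thus lay within the wild-type range, whereas those of Gata3 lay between the other genotypes. Pax8, 1 of 4 measured oviduct genes, was 0.39 higher (0.00207). The other 3 oviduct genes did not pass, and the mean of the 4 was 0.26 to 0.28 in Foxl2-/- and 0.02 to 0.33 in wild-type ovaries, so that it did not separate these genotypes. In the other lists, 2 of 12 oocyte genes (Bmp15 and Oosp1), 3 of 5 theca and steroidogenic genes (Cyp17a1, Cyp11a1 and Hsd3b1) and 1 of 4 stromal genes (Pdgfra) were lower, and 1 of 6 Sertoli genes (Sox9) was higher. Without newborn wild-type replicate 1, 2 of the 6 Sertoli genes were called higher. No gene was called in the erythroid (2 measured), macrophage (4), lymphoid (4) or proliferation (3) lists. In newborns, beside the fall of Klf2, no endothelial gene was called, the endothelial mean was 0.99 to 1.22 in Foxl2-/- and 0.98 to 1.08 in wild-type ovaries, and the granulosa mean was 0.55 to 0.60 in Foxl2-/- and 0.95 to 1.66 in wild-type ovaries, or 0.94 to 1.13 without newborn wild-type replicate 1. The part of any cell type in the changes of the 68 genes was not tested.

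For 11 of the 68 genes more than 1 probe was named, and none of the 10 genes called between groups is among them. The values of 3 of them are given here, chosen after they were seen because their probes differed. For Klf10, the brighter probe gave 0.41 between 7 dpn Foxl2-/- and wild-type ovaries and the other, of nearly equal signal, gave 0.03. For Foxn4, the other probe had values of 0.50 and 1.49 in 7 dpn wild-type and -0.11 to 0.08 in newborn ovaries of all genotypes and was called higher with age in wild-type (0.95, limma adjusted p = 0.038), while the brighter probe gave 0.01. For Foxe1, the other probe was called 0.26 higher in 7 dpn Foxl2-/- than in wild-type (0.0341), where the brighter gave 0.51 and did not pass.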

How the data were processed

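Gene expression was measured in 15 ovary RNA samples on 2-colour Agilent mouse developmental arrays, which were grouped by the genotype and age in their titles. One label field gives birth as the age of the 7 dpn samples, while the titles and methods give 7 dpn, which was used. The methods count fewer 7 dpn samples than are labelled, and all 6 labelled samples were used. The labels name an amplification kit for all samples, while the methods state that RNA of the 7 dpn ovaries was not amplified.

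The authors deposited the scanner output of every array, with intensity per spot in both channels as made by Agilent Feature Extraction A.7.5.1, in which the processed intensity is background-subtracted and dye-normalized. This deposited output also gives a log10 ratio of reference over ovary, of which only the sign convention was used. The series values that the authors deposited are positive linear intensities (40972 spots, all matched by feature number). Their median correlation over arrays was 0.975 with the log2 ovary signal and 0.208 with the log2 ratio; their scaling and centring stay unknown, and they served as an alternative. No per-sample column was left unused.

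Here Cy3 was divided by Cy5 in the processed intensities and log2 was taken, 2396 control spots and 7 to 100 outlier spots an array were left out, spots of a probe were averaged, and each array was fitted by loess (span 0.01, 4 iterations) against the mean of the 15 arrays. The steps ran in R 4.3.3 with limma 3.58.1 and the data.table package (1.17.8). Groups were compared with lmFit and eBayes over all 15 arrays and 40990 probes, and the threshold for a call was 0.05 after Benjamini-Hochberg adjustment. An adjusted p in the text is from this limma fit. Precision is limited by how few arrays there are. The fit was tested on simulated data. A probe was named where its RefSeq accession is listed by RefSeq for GRCm38.p6, which named 15294 probes. Levels of different probes were not set against each other. Genes dim on most arrays have no fold.

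The genes, the lists of partners, targets and markers and the comparisons were chosen with earlier results of these data known. Named per comparison were every called gene, the 5 largest differences each way among genes well above background, and a list of 46 factors with roles in the gonad or in cells of the ovary, 38 of them measured, given where they add to a result. Alternatives were another threshold (0.01), median centring, normexp (offset 50) followed by loess within arrays, a local mean, a span of 0.3, the ovary channel alone, the series values, a filter on dim probes, the mean of all probes of a gene, the arrays of one age, the replicate number as a block and leaving out each array. A block for the scan or extraction day was not run, because that day and age cannot be told apart and each genotype comparison lies within a day.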

Additional observations from a re-analysis of the deposited data

Results flagged for a closer look

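For Gata3 and Runx1t1, the effect of losing both copies of Foxl2 differed between newborn and 7 dpn ovaries in the test of that difference itself with the main setting. The Gata3 difference between Foxl2-/- and wild-type was 1.16 higher on the log2 scale at 7 dpn than in newborns (SE 0.15, limma adjusted p = 0.0243), and the Runx1t1 difference was -1.36 (SE 0.23, adjusted p = 0.0472). Gata3 lost the call in 6 of 25 alternatives and Runx1t1 in 17 of 25, both with the replicate block among them, and in the authors' series values Runx1t1 was at -0.75 (adjusted p = 0.0886). With all arrays, Foxo1 also passed with normexp (-1.01, 0.0295) and with the filter on dim probes (-1.04, 0.0429), and Sox18 (-0.85, 0.046) and Sox7 (-0.83, 0.0129) with normexp.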

How the results depend on the processing

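No called gene changed direction under any alternative. With the stricter threshold of 0.01, the number of called genes was 5 (7 dpn null against wild-type, 8 with the main setting), 0 (7 dpn null against heterozygous, 3), 0 (newborn null against heterozygous, 1), 3 (wild-type age, 6) and 0 (null interaction, 2). With the ovary channel alone it was 5, 0, 0, 3 and 0 in the same comparisons, 0 for newborn null against wild-type (1) and 0 for null age (1). Normexp gave 6 for 7 dpn null against heterozygous, 2 for newborn null against wild-type, 4 for null age and 5 for the null interaction. A span of 0.3 gave 2 for newborn null against wild-type and 2 for null age. The filter on dim probes gave 5 for 7 dpn null against heterozygous and 2 for null age. The series values gave 2 for newborn null against wild-type, 0 for newborn null against heterozygous and 1 for the null interaction. Median centring gave 0 and the arrays of one age gave 0 for newborn null against heterozygous.

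Leaving out 1 array gave 4 to 9 genes for 7 dpn null against wild-type, 0 to 2 for 7 dpn heterozygous against wild-type, 0 to 5 for 7 dpn null against heterozygous, 1 to 5 for newborn null against wild-type, 0 to 5 for newborn heterozygous against wild-type, 0 to 1 for newborn null against heterozygous, 5 to 13 for wild-type age, 0 to 2 for null age, 0 to 8 for the null interaction and 0 to 4 for the heterozygous interaction; the upper ends of 5, 13, 8 and 4 came without newborn wild-type replicate 1. The causes were not tested. Over all probes, 7 dpn null against wild-type had 2456 calls, 979 at the threshold of 0.01 and 874 with the ovary channel alone.

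Samples with the same replicate number did not deviate together (correlations of -0.17 to 0.15 in newborns and -0.13 to -0.01 at 7 dpn), so the numbers give no pairing. With a replicate block the null interaction gave 0 genes (Gata3 adjusted p = 0.0586, Runx1t1 0.0746), and the other counts were 6, 0, 4, 1, 0, 1, 5, 1 and 0 in the order of the ranges above without it. With the 7 dpn heterozygous numbers crossed, chosen after seeing the data, 7 dpn heterozygous against wild-type gave 0.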
